A study of Mus musculus with 6 samples.

Results

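Imprinted genes are transcribed mainly from 1 parental copy. The 10 studied here are Peg3, Peg10, Mest, Plagl1, Nnat, Ndn, Igf2r, Grb10, Cdkn1c and Gnas. They were chosen by name for their part in growth, with earlier results of these data known. Of these 10 genes, 9 have a row among the 12316 gene rows of the authors' deposited table, and Grb10 was not analysed here because no row carries its symbol or an older name of it. By their known parental expression in mice, 6 of the listed genes are paternally expressed (Peg3, Peg10, Mest, Plagl1, Nnat and Ndn) and 3 maternally expressed (Igf2r, Grb10 and Cdkn1c). Gnas was kept apart, because its locus makes transcripts of both kinds. Which parental copy was transcribed was not measured, so the grouping rests on background knowledge alone and may not hold in these cells.

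Imprinting is set in the germ line by DNA methylation at control regions, and clusters of neighbouring genes often share such a region. Paternally expressed genes such as Mest and Peg3 are known to favour growth of the mouse embryo, and maternally expressed genes such as Igf2r, Grb10 and Cdkn1c to restrain it. Several of them, among them Ndn, Nnat and Peg3, are strongly expressed in the developing brain.

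The cells were neural stem cells of CD-1 mouse embryos at E14.5, bought from R&D Systems, grown as a monolayer on laminin with EGF and bFGF. They were transduced with lentivirus and kept under puromycin at 0.5 µg/mL. The groups are Sox4 shRNA 1 (TRCN0000012078), Sox4 shRNA 2 (TRCN0000012080) and a scrambled shRNA (SHC002), with 2 libraries of poly(A) RNA each, so all 6 libraries carry a hairpin and came through selection. The study's design text gives the libraries of a pair as biological duplicates of different passages. It does not say that they were separate cultures, and p-values then rest only on the spread between libraries, which may be technical.

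The table gives 1 level per gene for each of 2 conditions, a log2 fold (the second condition over the first), and a p and q from Cuffdiff, the program that compared them. Its header does not name the conditions and does not say whether both Sox4 hairpins were pooled, so no direction below is that of a knockdown. Levels are taken as FPKM, fragments scaled to transcript length and library total, which Cuffdiff writes in these columns, although the header does not state the unit. No value per library was analysed, so the depth is unknown, no SD or n can be given, and no measure of spread is at hand. The authors' p and q are test results and do not give the spread. A gene "rose" or "fell" where the authors flagged it as significant, at a q under 0.05, and it was higher or lower in the second condition.

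The targeted gene, Sox4, stood at 83.9 FPKM in the second and 126.8 FPKM in the first condition of the authors' deposited table, with a Cuffdiff q of 0.0543, and was not called. Of 10 markers of neural stem cells 9 had a row, of which 1 rose and 1 fell, and their summed level was 4023 FPKM in the second and 6227 FPKM in the first condition. Fabp7, the marker that fell, makes up most of that sum, at 2286 FPKM in the second and 4620 FPKM in the first condition of the authors' deposited table. Nes rose, at 169.8 FPKM in the second and 98.1 FPKM in the first condition there, and the other 7 were not called. The 6 astrocyte markers summed to 66.4 FPKM in the second and 153.9 FPKM in the first condition, with 1 rise and 4 falls. No marker of microglia, endothelium or fibroblasts, 14 in all, had a row. The part of this shift in astrocyte markers in the results below was not tested, and in bulk RNA fewer cells of a type and less RNA per cell cannot be told apart.

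Of the 9 imprinted genes with a row, 4 rose (Peg3, Peg10, Mest and Igf2r), 0 fell and 5 were not called. Over all gene rows 3.17% rose and 1.83% fell in the authors' deposited table. Because the list was chosen with earlier results of these data known, the comparison with these shares is a description and not a test. The genes that rose were between 1.78-fold and 2.14-fold higher in the second condition. The folds of the other 5 genes lay between -0.35 and 0.38 on the log2 scale. No row was called at an absolute log2 fold under 0.549, so a gap between called and uncalled genes is partly set by the call. A fold at least as high as that of Mest, the lowest of the 4, was reached by 3.20% of all rows. The median log2 fold of the 9 genes was 0.38, against 0.0033 over all rows.

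**Figure D1:**
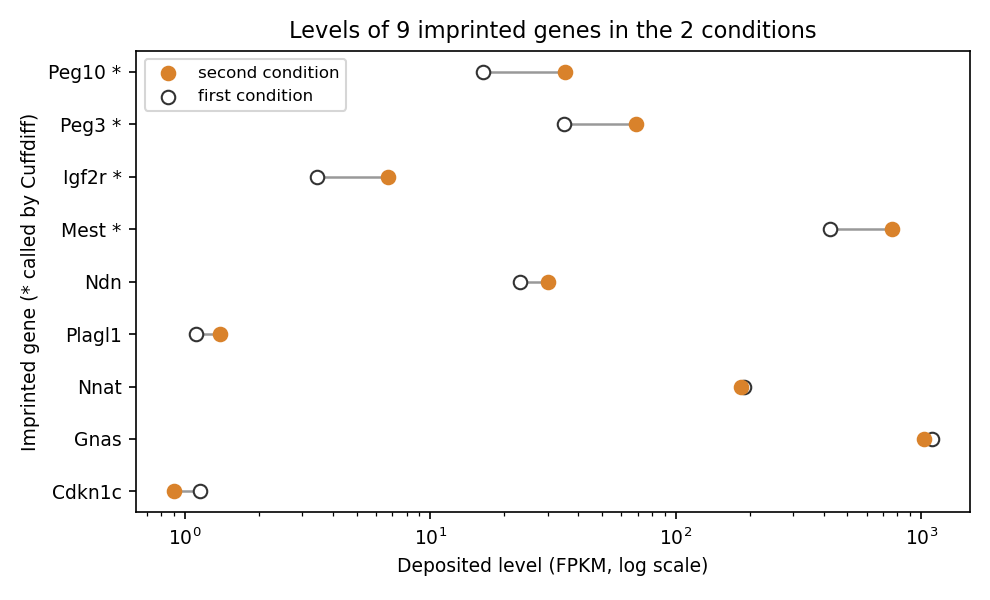
Level of each imprinted gene in the second (filled) and first (open) condition of the authors' deposited table, in FPKM on a log axis, ordered by log2 fold; an asterisk marks genes called by Cuffdiff, and no error bars can be drawn because there is 1 level per condition. Peg10, Peg3, Igf2r and Mest lie clearly to the right in the second condition, while Nnat and Gnas nearly coincide.

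The levels ran over about 3 orders of magnitude. In the second condition the order from high to low was Gnas, Mest, Nnat, Peg3, Peg10, Ndn, Igf2r, Plagl1 and Cdkn1c. In the first condition Ndn stood above Peg10, and Cdkn1c above Plagl1, and the order was otherwise the same. Gnas and Mest were above 99% of all rows in mean level, at percentiles 99.7 and 99.3. Plagl1 and Cdkn1c lay at percentiles 7.77 and 5.77. Without values per library, it cannot be said which neighbours in this order differ beyond their spread.

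Peg3, a zinc finger protein gene of the paternal copy known for its role in growth and maternal behaviour of mice, rose (chromosome 7, 6703892 to 6730431, minus strand). It stood at 69.1 FPKM in the second condition and 34.9 FPKM in the first condition of the authors' deposited table. The fold was 1.98, a log2 fold of 0.98, with a Cuffdiff p of 5e-05 and a q of 0.00304. Its p is the lowest in the table, shared by 230 rows, so that Peg3, Peg10 and Igf2r, all at this p, cannot be ranked by it.

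Peg3 begins 147 bases from Usp29, a paternally expressed gene read in the opposite direction. The stretch between their first exons holds both start regions (chr7:6730432-6730577 of GRCm38, Peg3 strand, 146 bases, from the RefSeq promoter table). It is shown because Peg3 was higher and Usp29 lower in value in the second condition, although Usp29 was not called. It holds 5 CpG and none of the motifs searched.
Peg3 to Usp29: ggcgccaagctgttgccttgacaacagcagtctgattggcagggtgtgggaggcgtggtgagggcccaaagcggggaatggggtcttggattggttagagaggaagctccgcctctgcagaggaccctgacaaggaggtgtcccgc

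Usp29 stood at 0.816 FPKM in the second and 1.03 FPKM in the first condition of the authors' deposited table, with a q of 0.662, and was not called. Zim1, the maternally expressed zinc finger gene on the other side of Peg3, stood at 0.784 FPKM in the second and 0.457 FPKM in the first condition in the authors' deposited table, where the q was 0.336. Both neighbours lay near or under 1 FPKM in both conditions. Of 10 measured neighbours of Peg3 within 500 kb, 0 were called and 9 had a negative log2 fold, most of them zinc finger genes. The log2 folds of these 10 had a median of -0.25, so Peg3 lay above all of them in value. The difference between Peg3 and its neighbours was not tested.

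Peg10, a paternally expressed gene derived from a retrotransposon and needed for the mouse placenta, rose (chromosome 6, 4747306 to 4760517, plus strand). It stood at 35.2 FPKM in the second and 16.4 FPKM in the first condition of the authors' deposited table. With a fold of 2.14 and a q of 0.00304 it had the highest fold of the 9 genes. Its RNA is known to carry a pair of overlapping reading frames, the second reached when ribosomes slip back by a base. The slippery site and the stop codon of the first frame are shown because both products come from the same RNA, so a level per gene cannot tell them apart. The bases are positions 1447 to 1501 of the 6667 nt transcript of Peg10 in GENCODE, and lie at chr6:4755297-4755351 of GRCm38. Capitals mark the slippery heptamer and, 15 bases after it, the stop codon that ends the first frame after 376 codons.
Peg10: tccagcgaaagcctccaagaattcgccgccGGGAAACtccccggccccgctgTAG

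Sgce, the paternally expressed sarcoglycan gene whose start lies 99 bases from that of Peg10 on the other strand, did not share its direction in value. Sgce stood at 15.0 FPKM in the second and 18.8 FPKM in the first condition of the authors' deposited table, with a q of 0.470. Ppp1r9a, on the other side, stood at 15.7 FPKM in the second and 14.3 FPKM in the first condition in the authors' deposited table, where the q was 0.836. Of the 3 measured neighbours within 500 kb, 0 were called.

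Mest, a paternally expressed gene for a protein of the hydrolase fold family, was the most abundant of the genes that rose (chromosome 6, 30723547 to 30748465, plus strand). It stood at 756.7 FPKM in the second and 424.2 FPKM in the first condition of the authors' deposited table. The log2 fold came to 0.84 at a Cuffdiff p of 0.00055, and the q of 0.0187 was the highest among the 4. The 250 bases before its RefSeq start (chr6:30737800-30738049 of GRCm38, plus strand) are shown for their CpG and for the hexamer TGCCGC, the known target of ZFP57, a protein that keeps methylation at imprinted regions. Capitals mark its 2 matches, both on the minus strand, in a stretch with 14 CpG. Of all 32851 RefSeq promoters of this length 8.68% hold the hexamer, and their median is 6 CpG.
Mest: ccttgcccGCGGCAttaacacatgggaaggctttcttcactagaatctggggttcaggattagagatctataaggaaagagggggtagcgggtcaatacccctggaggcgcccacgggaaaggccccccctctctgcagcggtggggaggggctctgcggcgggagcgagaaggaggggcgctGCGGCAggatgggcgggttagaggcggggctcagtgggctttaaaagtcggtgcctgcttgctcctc

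Exons of Mest overlap those of Copg2 on the other strand over 912 bases, 23.1% of the exon bases of Mest. Copg2, a coat protein subunit gene that is maternally expressed in some mouse tissues, stood at 124.6 FPKM in the second and 76.0 FPKM in the first condition of the authors' deposited table. Its log2 fold of 0.71 was near that of Mest, but with a q of 0.439 it was not called. Whether strand was used in counting is not given in the sources used here, and without it reads of Mest and Copg2 cannot be told apart over the shared bases. On its other side, Cep41 stood at 8.17 FPKM in the second and 5.26 FPKM in the first condition in the authors' deposited table, where the q was 0.0834.

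Igf2r, a maternally expressed gene for the receptor that carries IGF2 and mannose 6-phosphate proteins to lysosomes, rose (chromosome 17, 12682406 to 12769664, minus strand). It stood at 6.69 FPKM in the second and 3.44 FPKM in the first condition of the authors' deposited table. The fold was 1.94, with a q of 0.00304, so its fold was close to that of Peg3 at a lower level. The 250 bases before its start (chr17:12769707-12769956 of GRCm38, minus strand) are shown as the promoter of the one maternally expressed gene among the 10 that rose. Capitals mark 2 matches of the E-box CACGTG, which reads the same on both strands and occurs in 6.02% of all RefSeq promoters of this length. The stretch holds 27 CpG.
Igf2r: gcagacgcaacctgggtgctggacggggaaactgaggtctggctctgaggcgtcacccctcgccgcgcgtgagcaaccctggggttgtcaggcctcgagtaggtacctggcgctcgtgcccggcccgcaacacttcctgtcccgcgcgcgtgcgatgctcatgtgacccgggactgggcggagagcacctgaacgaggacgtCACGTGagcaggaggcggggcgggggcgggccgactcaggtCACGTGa

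Airn, the paternally expressed RNA that runs antisense through Igf2r and is known to silence the paternal Igf2r copy, stood at 0.524 FPKM in the second and 0.648 FPKM in the first condition of the authors' deposited table, with a q of 0.957. No annotated exon of Airn overlaps one of Igf2r. Of 9 measured neighbours of Igf2r within 500 kb, 0 were called, with log2 folds between -0.18 and 1.09. The nearest measured on each side were Tcp1, at 132.1 FPKM in the second and 139.1 FPKM in the first condition, and Map3k4, at 15.8 FPKM in the second and 11.4 FPKM in the first condition of the authors' deposited table.

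Of the 14 RefSeq promoters that belong to 8 of the 10 genes, 0 held either SOX motif searched, ACAAAG or ACAATG, on either strand over 250 bases. Among all promoters 16.5% held the first and 10.7% the second. The 14 are not all distinct, as some entries of Mest and of Gnas nearly coincide. The Ndn entry and a Gnas entry lie wholly within annotated exons of their own gene. The YY1 core GCCAT was found for Ndn, Plagl1 and Gnas and occurs in 32.9% of all promoters. The PLAGL1 core GGGGCCC was found for Peg3, Mest, Grb10 and Gnas and occurs in 5.69% of them. For Peg3 it has 2 overlapping matches, 1 on each strand, outside the stretch printed above, and for Mest it lies before another start. The hexamer TGCCGC and the E-box were each found once for Plagl1. The TATA box TATAAA, present in 12.4% of all promoters, was found for Gnas. A match is a run of letters and not a bound site, and a missing match says nothing of the factor.

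The other 5 genes were not called. Ndn, which encodes necdin, a MAGE family protein that holds back growth of neurons, came nearest (chromosome 7, 62346569 to 62350262). It stood at 30.05 FPKM in the second and 23.2 FPKM in the first condition of the authors' deposited table, with a p of 0.0590 and a q of 0.333. Around it lie further paternally expressed genes. Peg12 stood at 23.8 FPKM in the second and 17.9 FPKM in the first condition in the authors' deposited table, where the q was 0.254. Mkrn3 stood at 2.17 FPKM in the second and 2.58 FPKM in the first condition in the authors' deposited table, where the q was 0.765.

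Plagl1, a zinc finger transcription factor gene known to act on other imprinted genes in mice, was close to the lower end of the table. It stood at 1.38 FPKM in the second and 1.10 FPKM in the first condition of the authors' deposited table, with a q of 0.645 (chromosome 10, 13060504 to 13131694). Its log2 fold was 0.32, and 0.18 with a pseudocount of 1 on each level. Among its 7 measured neighbours within 500 kb, Utrn, the gene of the muscle and membrane protein utrophin, rose. Utrn stood at 6.58 FPKM in the second and 3.83 FPKM in the first condition of the authors' deposited table, with a q of 0.00304. Nearer by, Sf3b5 had 27.5 FPKM in the second and 27.4 FPKM in the first condition of the authors' deposited table, and Ltv1 27.1 FPKM in both.

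Nnat, which encodes a small membrane protein of the brain, neuronatin, lies within the bounds of Blcap (chromosome 2, 157560078 to 157562522). It stood at 184.8 FPKM in the second and 190.1 FPKM in the first condition of the authors' deposited table, with a q of 0.964. Blcap stood at 22.0 FPKM in the second and 32.5 FPKM in the first condition in the authors' deposited table, where the q was 0.645.

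Cdkn1c, the maternally expressed gene of the cyclin-dependent kinase inhibitor p57, was the lowest of the 9 in the second condition (chromosome 7, 143458339 to 143461050). It stood at 0.902 FPKM in the second and 1.15 FPKM in the first condition of the authors' deposited table, with a log2 fold of -0.35 and a q of 0.747. With a pseudocount of 1 on each level, the log2 fold of Cdkn1c was -0.18. Its exons share 625 bases with an antisense transcript, Gm44732. Of 9 measured neighbours within 500 kb 0 were called, among them the nearest on each side, Nap1l4 and Tssc4. Tssc4 stood at 43.3 FPKM in the second and 31.9 FPKM in the first condition of the authors' deposited table.

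Gnas, whose main product is the stimulatory G protein alpha subunit, was the most abundant (chromosome 2, 174284320 to 174346744). It stood at 1022 FPKM in the second and 1105 FPKM in the first condition of the authors' deposited table, with a q of 0.856. The row sums transcripts of several promoters, paternal and maternal, and they cannot be told apart in it. Of its 7 measured neighbours the nearest on each side, Npepl1 and Nelfcd, were not called. Another, Atp5e, a subunit gene of the mitochondrial ATP synthase, fell, at 230.0 FPKM in the second and 365.9 FPKM in the first condition of the authors' deposited table, with a q of 0.0162.

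**Figure D2:**
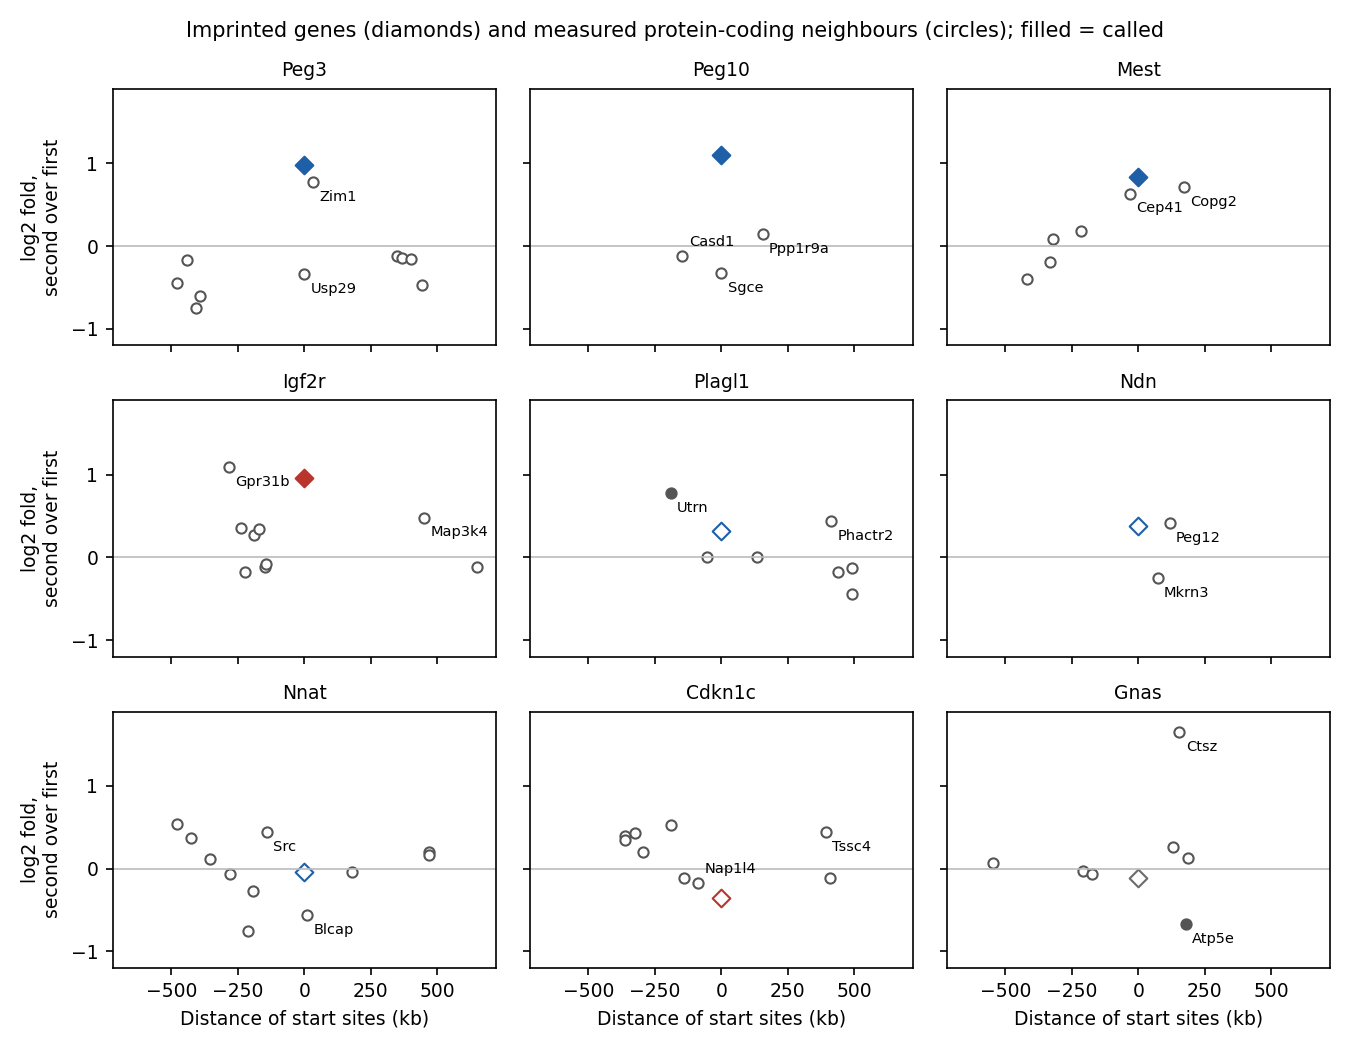
Log2 fold of second over first condition (vertical) against the distance between start sites in kb, counted along the imprinted gene's strand (horizontal), for each imprinted gene (diamond) and its measured protein-coding neighbours within 500 kb (circles); filled symbols were called by Cuffdiff, and diamonds are blue for paternally expressed genes, red for maternally expressed genes and grey for Gnas. Peg3, Peg10 and Mest lie above every measured neighbour, and of all neighbours Utrn rose and Atp5e fell.

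Counting each neighbour once, 65 of 129 protein-coding genes within 500 kb of a listed gene were measured, of which 1 rose and 1 fell. Positive log2 folds numbered 33 and negative ones 32, with a median of 5.15e-05. Over all rows 3.17% rose and 1.83% fell, and the neighbours' few calls are not read as a result about them. For Grb10, 1 neighbour was measured, Fignl1, and it was not called, at 26.8 FPKM in the second and 20.6 FPKM in the first condition.

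Paternally and maternally expressed genes were then set side by side. Of the 6 paternally expressed genes, 3 rose and 0 fell, with log2 folds between -0.04 and 1.10 and a median of 0.61. Of the 2 measured maternally expressed genes, Igf2r rose and Cdkn1c was not called, with a median log2 fold of 0.30. The ranges of the log2 folds overlap, and 2 genes do not allow a test of a difference between the parental kinds.

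Further imprinted genes were then listed. Of 24 other paternally expressed genes 13 had a row, and 0 rose or fell, while 3 had an unadjusted Cuffdiff p under 0.05. Their median log2 fold was -0.25, and 9 of 13 folds were negative. Snrpn and Snurf, a splicing protein gene and its partner counted in 1 row, stood at 31.1 FPKM in the second and 44.3 FPKM in the first condition of the authors' deposited table, with a q of 0.107. Nap1l5, of the nucleosome assembly protein family, stood at 19.8 FPKM in the second and 32.9 FPKM in the first condition in the authors' deposited table, where the q was 0.123.

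A further 27 genes are listed as maternally expressed, which may not hold in neural stem cells. Of these, 12 had a row, of which 1 rose and 0 fell, with a median log2 fold of 0.11. Both counts are to be read against the 3.17% of all rows that rose and the 1.83% that fell. The rise was that of Atp10a, which encodes a phospholipid transporter, at 1.86 FPKM in the second and 0.734 FPKM in the first condition of the authors' deposited table, with a q of 0.00304. The log2 fold of Atp10a was 1.34, and 0.72 with a pseudocount of 1 on each level. The most abundant were Cd81, at 538.5 FPKM in the second and 582.8 FPKM in the first condition, and Nap1l4, at 181.8 FPKM in the second and 205.1 FPKM in the first condition of the authors' deposited table. H19, Igf2, Dlk1 and Meg3 were not analysed here, since no row carries them. With these genes added, the median log2 fold of the paternal kind was -2.54e-05 over 19 rows, and that of the maternal kind 0.11 over 14 rows.

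**Figure D3:**
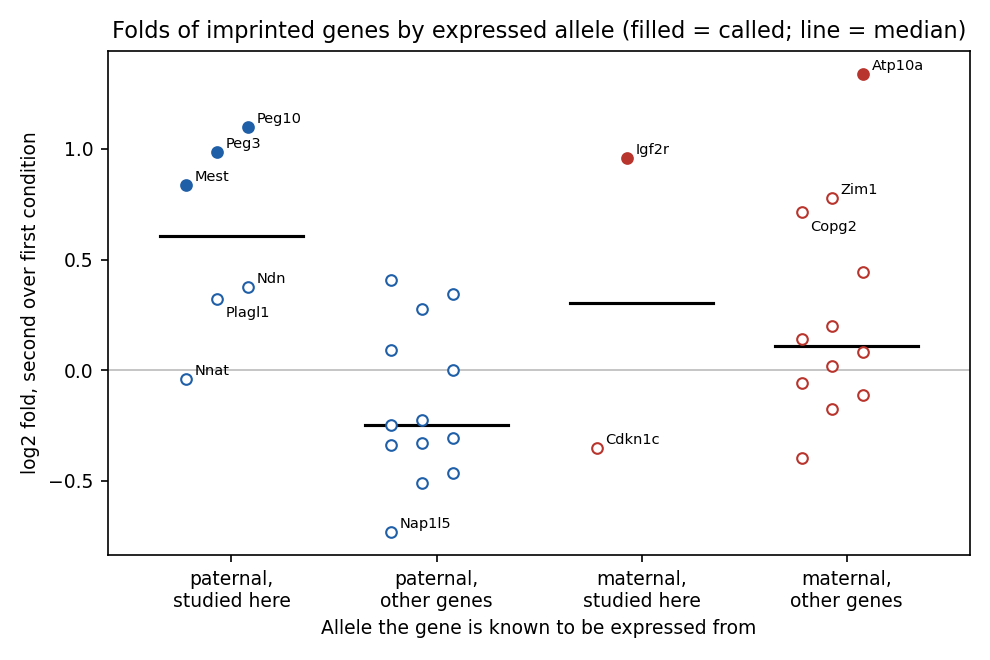
Log2 fold of second over first condition for the paternally and maternally expressed genes studied here and for other imprinted genes of each kind, with filled points for genes called by Cuffdiff and a line at each median. The medians are 0.61 and -0.25 for the paternal and 0.30 and 0.11 for the maternal genes, the genes studied here first in each pair.

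**Figure D4:**
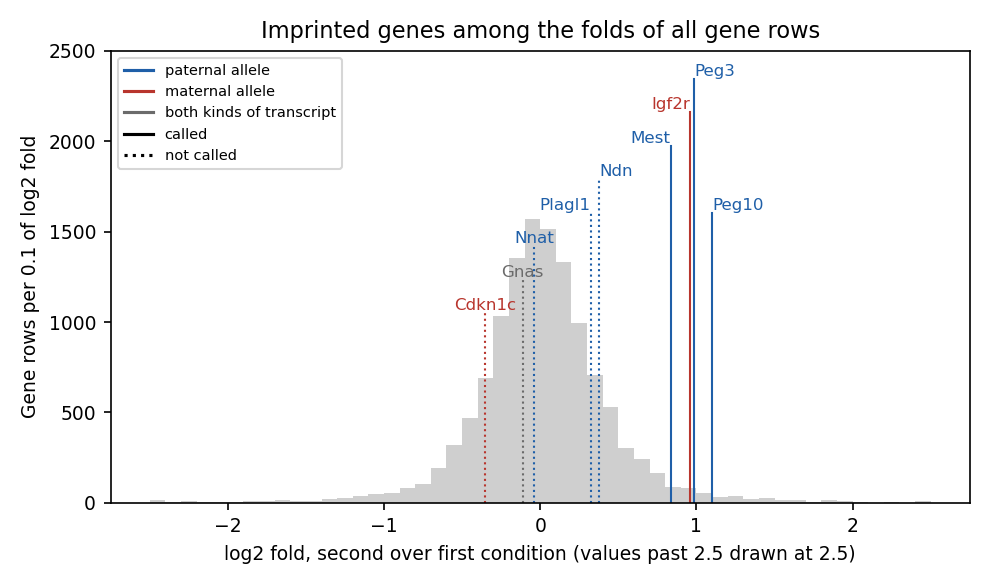
Number of gene rows per 0.1 of log2 fold of second over first condition (grey), with lines at the imprinted genes, solid where called and dotted where not; line height carries no value. Mest, Igf2r, Peg3 and Peg10 lie in the upper tail, between 0.84 and 1.10, and the other 5 genes within the bulk of the rows.

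Calls in this comparison went with transcript length. Length is that of the longest annotated protein-coding transcript, or of the longest transcript where a gene has no coding one. Among rows in the longest 10% by this length, from 6848 nt upward, 13.2% rose, against 2.06% of the other rows. Peg3 and Igf2r, at 8694 and 8887 nt, are in that group. Peg10, at 6667 nt, lies in the next group when rows are split into 10 by length, where 4.53% rose, and Mest, at 2665 nt, in a shorter group where 1.4% rose. With a smoothed length trend taken off, the log2 folds were 0.76 for Peg3, 0.94 for Peg10, 0.87 for Mest and 0.72 for Igf2r. Of the uncalled genes, Cdkn1c and Nnat are short, at 1901 and 1213 nt. The uncalled Plagl1, Gnas and Ndn, at 5260, 3947 and 3694 nt, are longer than Mest, and Plagl1 lies in the same length group as Peg10. The part of length in the 4 rises was not tested further.

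**Figure D5:**
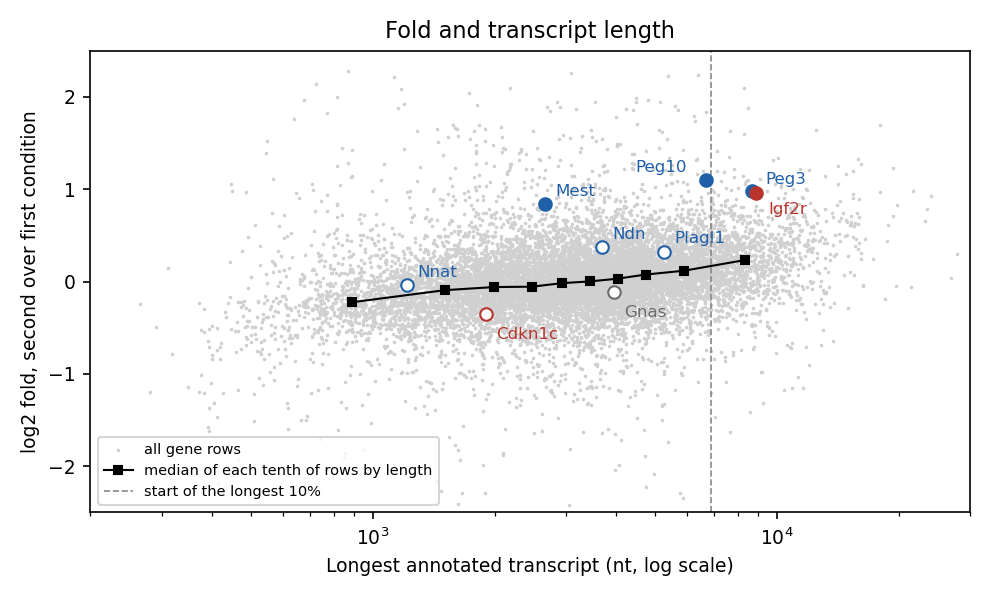
Log2 fold of second over first condition against transcript length in nt (log axis) for all gene rows (grey), with the imprinted genes filled where called. Length is that of the longest protein-coding transcript where a gene has one. Black squares mark the median of each of 10 groups of rows by length, and a dashed line marks where the longest 10% begins. Blue marks paternally and red maternally expressed genes, and rows beyond the axis limits are not drawn. Peg10, Mest, Peg3 and Igf2r lie above the median of their group, and Peg3 and Igf2r lie right of the line.

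Genes that act with the imprinted proteins were followed by role. In IGF and insulin signalling, where Igf2r and Grb10 act, 3 of 23 measured genes rose and 0 fell, with a median log2 fold of 0.16, where 3.17% of all rows rose. Irs2, an adaptor of the insulin and IGF1 receptors, stood at 25.3 FPKM in the second and 11.2 FPKM in the first condition of the authors' deposited table, with a q of 0.00304. Igfbp3, an IGF binding protein, stood at 659.4 FPKM in the second and 399.6 FPKM in the first condition in the authors' deposited table, where the q was 0.0135. Mtor, a growth kinase, stood at 23.2 FPKM in the second and 14.9 FPKM in the first condition in the authors' deposited table, where the q was 0.0211. Of these 23 genes 10, Mtor among them, are in the longest 10% of transcripts, where 13.2% rose. Igfbp2, the most abundant, stood at 1078 FPKM in the second and 1030 FPKM in the first condition in the authors' deposited table, a difference that Cuffdiff did not call.

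Among 12 genes of mannose 6-phosphate sorting, which hold the tagging enzymes, the adaptors, the second receptor and 3 lysosomal proteases carried as cargo, 0 rose and 1 fell. With 3.17% of all rows risen and 1.83% fallen, this count is not read as a result about the list. The fall was that of Ctsl, 1 of these proteases, at 15.4 FPKM in the second and 24.4 FPKM in the first condition of the authors' deposited table, with a q of 0.0384. The most abundant, Ctsd, at 161.1 FPKM in the second and 197.2 FPKM in the first condition of the authors' deposited table, and Ap1m1 were not called. M6pr, that second mannose 6-phosphate receptor, stood at 51.4 FPKM in the second and 52.7 FPKM in the first condition in the authors' deposited table, where the q was 0.961.

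Among factors that set or keep imprints, 2 of 19 measured genes rose and 0 fell, with a median log2 fold of 0.20, where 3.17% of all rows rose. Of the 19, 5 are in the longest 10% of transcripts, where 13.2% rose, and Tet1, at 14369 nt, is among them. Uhrf1, which brings the maintenance methyltransferase to newly copied DNA, stood at 62.1 FPKM in the second and 39.7 FPKM in the first condition of the authors' deposited table, with a q of 0.0162. Tet1, which oxidises methylated cytosine, stood at 3.76 FPKM in the second and 2.33 FPKM in the first condition in the authors' deposited table, where the q was 0.0248. The most abundant were not called: Trim28 stood at 168.4 FPKM in the second and 146.6 FPKM in the first condition, and Ezh2 at 63.0 FPKM in the second and 73.3 FPKM in the first condition of the authors' deposited table. Zfp57, the protein behind the hexamer shown above, stood at 1.45 FPKM in the second and 1.88 FPKM in the first condition in the authors' deposited table, where the q was 0.663.

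Around Cdkn1c, 0 of 18 genes of kinase inhibitors, cyclins and their partners were called by Cuffdiff, and 3 had an unadjusted p under 0.05. The most abundant were Pcna, at 632.9 FPKM in the second and 542.6 FPKM in the first condition, and Cdk4, at 505.2 FPKM in the second and 561.8 FPKM in the first condition of the authors' deposited table. Around Ndn, 0 of 5 measured MAGE family genes were called and 0 had an unadjusted p under 0.05. Of these, Maged1 stood at 595.2 FPKM in the second and 519.2 FPKM in the first condition of the authors' deposited table. Mageh1 stood at 130.6 FPKM in the second and 142.7 FPKM in the first condition there. With 3.17% of all rows risen and 1.83% fallen, 0 calls in lists this short are not read as a result.

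Around Peg10, 6 listed genes that also derive from LTR retrotransposons, 1 of them of another such family (Pnma1), had a row, 5 of them under an older name, and 0 were called, while 4 had an unadjusted Cuffdiff p under 0.05. Their median log2 fold was -0.48, and 4 of 6 were negative. Rtl8c and Rtl8b, near-identical copies whose reads can be split between them, were lower in value in the second condition, at 26.7 against 37.4 FPKM and 6.12 against 9.58 FPKM in the first condition of the authors' deposited table. Around Plagl1, 0 of 4 measured genes of its family or linked to it, Cdkn1c among them, were called and 1 had an unadjusted p under 0.05. Of these, Adcyap1r1, a neuropeptide receptor gene linked to Plagl1, stood at 72.1 FPKM in the second and 103.2 FPKM in the first condition of the authors' deposited table. Plagl2, a relative of Plagl1, stood at 2.95 FPKM in the second and 3.28 FPKM in the first condition there. For both lists, 0 calls are to be read against the 3.17% of all rows that rose and the 1.83% that fell.

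Around Gnas, 1 of 20 genes of G protein and cyclic AMP signalling rose and 1 fell. The shares over all rows were 3.17% risen and 1.83% fallen, and these few calls are not read as a result about the list. Adcy1, an adenylyl cyclase, stood at 7.94 FPKM in the second and 5.22 FPKM in the first condition of the authors' deposited table, with a q of 0.0392. At 12259 nt, Adcy1 is in the longest 10% of transcripts, where 13.2% rose. Gng5, a G protein gamma subunit, stood at 245.4 FPKM in the second and 378.1 FPKM in the first condition in the authors' deposited table, where the q was 0.0259. The most abundant, Gnai2, at 463.9 FPKM in the second and 489.2 FPKM in the first condition of the authors' deposited table, and Gnb2 were not called.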

How the data were processed

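Per the submitters' processing notes, the authors worked on the mouse build mm10 with Cufflinks 2.2.1, TopHat2 2.0.9 and a Cuffdiff whose version is missing. Libraries were of poly(A) RNA, prepared by a SOLiD Total RNA-Seq kit according to the protocols. The sources used here name neither the annotation nor any use of strand. Per the file headers, the authors deposited for each gene a level in each of 2 unnamed conditions, a log2 fold, a test statistic (a score), a p-value and q-value, and a flag. The header leaves the unit of the deposited levels unstated, and they were taken as FPKM, as planned. No deposited count was analysed, so nothing was refitted and no depth is known.

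All 12316 rows had test status OK, and 1 blank line was dropped. Python 3.11.15, numpy 2.4.6, pandas 2.3.3, statsmodels 0.14.6 and matplotlib 3.10.9 were used. The authors' calls were kept. Alternatives were other thresholds, a Benjamini-Hochberg q over rows at 1 FPKM or more, pseudocounts, and removal of a lowess length trend (span 0.3). The computation of q and the trend removal were tested on simulated rows with a straight-line length trend and changes placed independently of length. Calls in the real rows went with length, so that check does not show how either behaves here. Positions, exons and lengths are from GENCODE M21 on GRCm38, the assembly the notes name as mm10, and promoters from RefSeq on GRCm38.p6. Lengths were found for 98.7% of rows. Motifs were searched on both strands. The imprinted genes, lists and motifs were chosen with earlier results of these data known. Named beside them were called genes of each list, its 2 most abundant, and for each imprinted gene its called and nearest measured neighbours. A few others named for their role (Zfp57, M6pr, Airn, Peg12) were chosen after their values were seen. With 2 levels per gene, no genes of similar pattern were sought.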

Additional observations from a re-analysis of the deposited data

How the results depend on the processing

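The 4 rises among the imprinted genes became 1, that of Peg10, when an absolute log2 fold of 1 or more was required, and 2, those of Peg10 and Mest, without the longest 10% of transcripts, as fewer genes must give. Without Mest they were 3 at a q of 0.01, and also 3 without genes whose exons overlap another gene, and with a recomputed q or a level of at least 5 FPKM 4. The count of falls was 0 under each of these 6 alternatives. The median log2 fold of the paternally expressed genes was -2.54e-05 with the other paternally expressed genes added, in place of 0.61, and that of the maternally expressed genes 0.11 in place of 0.30. Pseudocounts, a level filter, centring and removal of the length trend left both medians within 1.5 times. Of 19 named genes, 1, Sox4, passed only with a q recomputed over rows at 1 FPKM or more (0.0463). With a pseudocount of 1, the log2 fold of 3 shrank by over 1.5 times, to 0.72 for Atp10a, -0.18 for Cdkn1c and 0.18 for Plagl1. No paired analysis was possible because levels are given by condition and not by library. For the same reason leaving out replicates and the replicate block were not run.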

Other observations

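Beside Gnas, Ctsz, a lysosomal protease gene, stood at 11.9 FPKM in the second and 3.80 FPKM in the first condition of the authors' deposited table. Its log2 fold of 1.65 was higher than that of any imprinted gene studied here, but its Cuffdiff q was 0.296. It was chosen after its values were seen. Gpr31b, near Igf2r, stood at 3.53 FPKM in the second and 1.66 FPKM in the first condition of the authors' deposited table, and its q was 0.130.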
